A study of Mus musculus with 9 samples.

Results

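The genes of inflammasome signalling, pyroptosis and necroptosis were followed through mouse hearts after ischemia and reperfusion. The set was fixed by name and holds 10 of the 23747 genes in the deposited tables: Nlrp3, Pycard, Casp1, Casp4, Casp8, Gsdmd, Il1b, Ripk1, Ripk3 and Mlkl. The rule used names and no threshold on a measured value, but the genes were chosen with earlier results of these data known. All 10 had unique molecular identifiers (UMIs, tags that mark single captured transcripts) in every major cell type of the heart.

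Inflammasomes are protein platforms that form in the cytosol when a sensor such as NLRP3 detects damage or infection. The sensor recruits the adaptor ASC, the product of Pycard, which gathers and activates caspase-1; caspase-1 then cuts the precursor of interleukin-1β and the pore-forming protein gasdermin D, whose pores end the cell by pyroptosis. Necroptosis is a second lytic death, in which RIPK1 and RIPK3 lead to phosphorylation of MLKL and rupture of the plasma membrane, and caspase-8 holds it in check. Both deaths release cell contents that draw leukocytes, and both are studied as sources of tissue loss in the reperfused heart.

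Nuclei were isolated from heart tissue below the ligation site of 9 young adult C57BL/6 mice, 3 per group, and their RNA was sequenced nucleus by nucleus. Sham mice were gavaged with vehicle (sodium carboxymethyl cellulose) for 7 days and operated on without ligation. I/R mice had the same vehicle and then 30 min of ligation of the left anterior descending artery (LAD) and 24 h of reperfusion. SBP mice had Shexiang Baoxin Pill, a herbal preparation named MUSKARDIA in the labels, by gavage over 7 days and then the same ligation and reperfusion, so that no group had the drug without injury. Each mouse gave 1 library, and nuclei of a mouse were summed before any test.

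The tables held 49171 nuclei and 135423853 UMIs, with 4576 to 6418 nuclei and 10329520 to 18205985 UMIs per mouse and a median of 1540 to 2031 UMIs per nucleus. Clustering without the 10 genes gave 10539 cardiomyocyte, 13455 endothelial, 14098 fibroblast, 9605 myeloid and 618 T cell nuclei, named from marker genes. Libraries shared 290 barcodes, which mark 580 nuclei, and in none of these did the total UMIs and the number of genes agree. Myeloid nuclei made up 8.48%, 11.7% and 14.5% of the nuclei of the sham mice, 35.9%, 27.3% and 18.4% of I/R mice 1 to 3, and 13.1%, 28.3% and 13.6% of SBP mice 1 to 3. I/R mouse 2 stood apart within these cells. Monocyte-like nuclei were 51.5% of its myeloid nuclei, against 5.08% and 8.43% in the other I/R mice, 14.7% to 17.2% in SBP and 0.627% to 1.3% in sham, and the values without it are given where a call for one of the 10 genes was lost.

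RefSeq promoter windows, reaching 250 bases before an annotated transcription start on build GRCm38.p6, were found for 9 of the 10 genes; Gsdmd had no entry. They were searched on both strands for GGGANNNNCC (NF-kB), TGANTCA (AP-1), GAAA, 2 free bases and GAAA again (interferon response), TTCNNNGAA (STAT) and GAGGAA (PU.1), motifs of factors that act in inflamed myeloid cells. Of 32851 such windows, 17.6% held the NF-kB motif, 6.75% AP-1, 2.98% interferon response, 7.02% STAT and 23.3% PU.1. Shown here are the windows of the 3 genes that were higher in I/R myeloid nuclei (Pycard, Ripk3 and Mlkl), of Il1b, which differed most in the whole heart, and of Nlrp3, the sensor. They read 5′ to 3′ on the strand of the gene, and capitals mark a match to a motif.
Pycard, chr7:127993868-127994117, minus strand: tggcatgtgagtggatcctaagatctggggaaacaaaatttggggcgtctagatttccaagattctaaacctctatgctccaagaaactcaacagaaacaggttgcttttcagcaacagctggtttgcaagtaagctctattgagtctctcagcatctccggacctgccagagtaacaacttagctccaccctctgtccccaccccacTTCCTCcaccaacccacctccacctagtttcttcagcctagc
Ripk3, chr14:55788858-55789107, minus strand: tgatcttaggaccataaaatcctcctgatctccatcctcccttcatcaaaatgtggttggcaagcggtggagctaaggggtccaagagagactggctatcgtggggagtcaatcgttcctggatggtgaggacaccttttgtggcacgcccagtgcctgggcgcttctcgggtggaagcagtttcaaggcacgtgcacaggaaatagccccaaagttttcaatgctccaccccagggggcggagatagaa
Mlkl, chr8:111338206-111338455, minus strand: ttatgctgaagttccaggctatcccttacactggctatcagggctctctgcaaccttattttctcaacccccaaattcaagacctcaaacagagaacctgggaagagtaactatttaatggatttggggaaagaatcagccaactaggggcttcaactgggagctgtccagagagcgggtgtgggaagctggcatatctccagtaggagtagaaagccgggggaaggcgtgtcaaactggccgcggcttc
Il1b, chr2:129371140-129371389, minus strand: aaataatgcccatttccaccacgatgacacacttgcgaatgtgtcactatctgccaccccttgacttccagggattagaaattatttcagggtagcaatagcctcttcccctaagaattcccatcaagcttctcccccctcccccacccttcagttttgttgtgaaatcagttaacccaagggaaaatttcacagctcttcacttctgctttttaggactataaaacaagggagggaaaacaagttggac
Nlrp3, chr11:59541319-59541568, plus strand: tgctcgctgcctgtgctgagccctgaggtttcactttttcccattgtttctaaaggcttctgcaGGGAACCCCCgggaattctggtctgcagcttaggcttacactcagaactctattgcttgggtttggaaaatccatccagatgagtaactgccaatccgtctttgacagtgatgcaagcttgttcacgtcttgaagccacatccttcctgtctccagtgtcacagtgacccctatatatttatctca

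The Pycard window held 1 PU.1 match on the opposite strand, which began 42 bases before the start. The Nlrp3 window shown is 1 of 2 for this gene and held 1 NF-kB match 186 bases before the start, while the other window held 3 PU.1 matches, the first 220 bases before its start, and the windows of Ripk3, Mlkl and Il1b held none of the 5 motifs. The 3 genes that were higher together in myeloid nuclei therefore shared no match in this stretch, which says only that these letters were not there. Elsewhere in the set, the 2 overlapping windows of Casp4 held the same NF-kB match, 92 and 103 bases before their starts, that of Casp1 held 1 PU.1 match, the second of the 2 Ripk1 windows held 2 STAT and 2 PU.1 matches, and the window of Casp8 held none.

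Levels are given as CPM, the UMIs of a gene as a share of all UMIs of the summed nuclei on the usual CPM scale, adjusted between mice by trimmed mean of M values (TMM) factors. The sensor, the caspase of the inflammasome, its pore and its cytokine had their highest means in myeloid nuclei. Nlrp3 averaged 59.8 ± 31.3 CPM in myeloid nuclei (SD, n = 9 mice), 5.25 ± 9.02 in T cells, 2.99 ± 2.88 in endothelial nuclei, 2.00 ± 2.15 in fibroblasts and 0.853 ± 0.525 in cardiomyocytes. Myeloid nuclei were above T cells in 9 of 9 mice (exact two-sided sign-flip permutation test, p = 0.00391, the smallest that 9 mice allow; Benjamini-Hochberg adjusted p = 0.012 over 40 pairs of neighbours). Of all Nlrp3 UMIs in the hearts, 86.4% lay in myeloid nuclei. T cell sums were small, with 23 to 183 nuclei per mouse. They held 3 Nlrp3 and 2 Mlkl UMIs in I/R mice and 0 of either in sham and SBP mice.

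Il1b, the gene of the cytokine interleukin-1β, followed with 84.0 ± 88.0 CPM in myeloid nuclei, 13.3 ± 20 in T cells and 12.7 ± 11.0 in endothelial nuclei, and 72.0% of its UMIs were myeloid. Casp1, the inflammasome caspase, averaged 33.0 ± 9.19 CPM in myeloid nuclei and 29.1 ± 29.8 in T cells, a pair that did not differ beyond the spread (adjusted p = 0.226, exact test), and stood at 6.82 ± 2.71 in endothelial nuclei. Gsdmd, which encodes the pyroptotic pore protein, was spread more evenly, with 68.7 ± 10.4 CPM in myeloid nuclei, 46.9 ± 30.3 in T cells, 41.6 ± 10.9 in endothelial nuclei and 31.7 ± 4.49 in fibroblasts. Only the steps from endothelial nuclei to fibroblasts and from fibroblasts to cardiomyocytes (1.55 ± 0.73 CPM) were beyond the spread for Gsdmd (adjusted p = 0.012 each, exact test). Pycard, the adaptor gene, did not differ between T cells (28.3 ± 23.6 CPM) and myeloid nuclei (25.9 ± 10.5), and myeloid nuclei were above endothelial nuclei (5.78 ± 3.42) in 9 of 9 mice.

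The caspases and kinases around cell death had other orders. Casp8, the initiator caspase that restrains necroptosis, was alike in T cells (188 ± 75.1 CPM) and myeloid nuclei (177 ± 11.1), and each further step down, to endothelial nuclei (66.8 ± 16.0), fibroblasts (34.8 ± 10.5) and cardiomyocytes (4.65 ± 1.5), was beyond the spread in 9 of 9 mice. Ripk1, the kinase that stands between survival signalling and death, was the most evenly spread, from 153 ± 20.7 CPM in myeloid nuclei to 76.0 ± 14.2 in fibroblasts with no step between neighbours beyond the spread, and then 23.8 ± 5.16 in cardiomyocytes. Only neighbours were tested, and T cells (116 ± 47.8 CPM) stood between myeloid and endothelial nuclei (79.7 ± 10.9). Myeloid nuclei were above endothelial nuclei in 9 of 9 mice, a pair that was not tested. Casp4, the caspase that senses bacterial lipopolysaccharide inside cells, was highest in fibroblasts (162 ± 60.5 CPM), although fibroblast, myeloid (139 ± 63.4) and endothelial (132 ± 57.8) nuclei did not differ from one to the next. Endothelial nuclei were above T cells (74.6 ± 29.3) in 8 of 9 mice (adjusted p = 0.0276, exact test). In cardiomyocytes Casp4 was at 3.60 ± 1.71 CPM.

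The kinase and the effector of necroptosis differed in where they lay. Ripk3 was low in every cell type, at 9.11 ± 13.8 CPM in T cells, 8.37 ± 4.62 in myeloid nuclei, 3.63 ± 1.27 in endothelial nuclei and 2.98 ± 2.27 in fibroblasts, and of its steps only that from fibroblasts down to cardiomyocytes (0.426 ± 0.376) was beyond the spread. Mlkl, the membrane-rupturing effector, was highest in endothelial nuclei (50.9 ± 5.09 CPM) and fibroblasts (43.7 ± 6.86), and both types together held most of its UMIs (35.5% and 43.2%). Myeloid nuclei stood at 23.9 ± 10.1 CPM, below fibroblasts in 9 of 9 mice. Over all 10 genes, 20 of the 40 neighbouring pairs differed, and cardiomyocytes were lowest for 9 genes, all but Mlkl, for which T cells were lowest without differing from cardiomyocytes (adjusted p = 0.125, exact test).

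**Figure D1:**
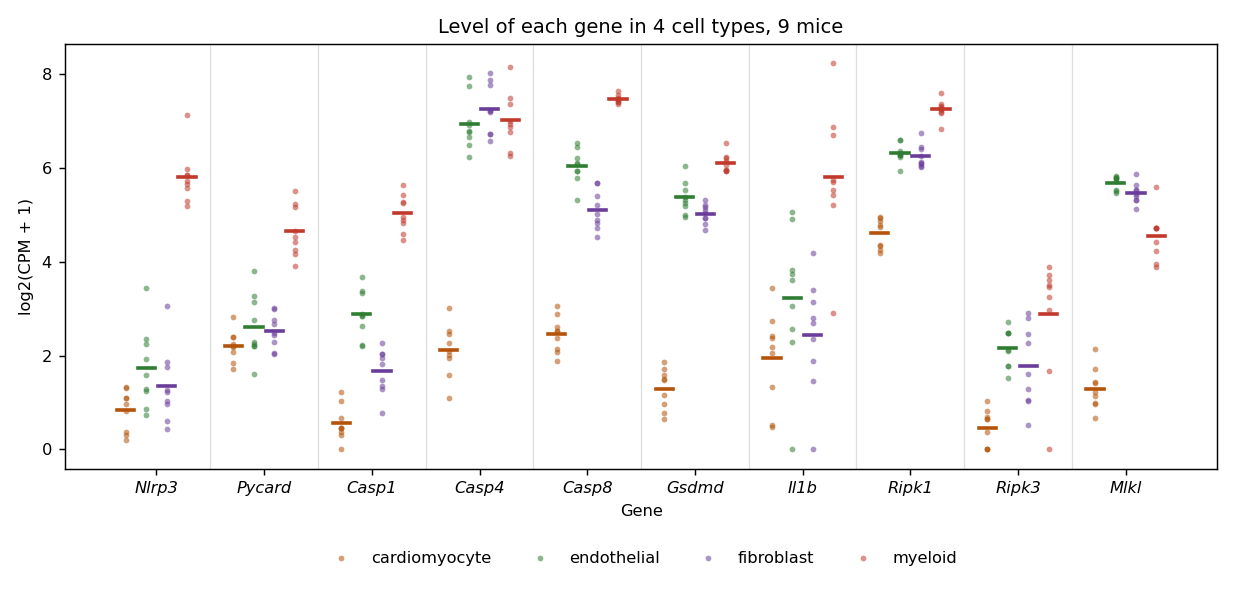
Level of each gene as log2(CPM + 1) on the y axis in cardiomyocyte, endothelial, fibroblast and myeloid sums, where each point is 1 of 9 mice and the bar is the mean on that scale. Of these 4 types, Mlkl was highest in endothelial nuclei, Casp4 in fibroblasts and the other genes in myeloid nuclei.

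To ask what ischemia and reperfusion changed, the sums of I/R and sham mice were compared in limma on log2(CPM + 1), with all 9 mice in the fit and Benjamini-Hochberg adjustment over all genes. A gene was called at an adjusted p of at most 0.05 and a log2 fold change beyond 0.25. In the whole heart, 5 of the 10 genes were called, all higher in I/R, while 11.4% of the 16045 genes tested were called in either direction. These were Il1b, Nlrp3, Pycard, Ripk3 and Ripk1, the cytokine, sensor and adaptor of the inflammasome and the 2 kinases of necroptosis. The median log2 fold change of the 10 genes was 0.62, against -0.03 over all genes tested. Because the set was chosen with earlier results of these data known, these counts and medians are a description and not independent support. In whole-heart sums, more cells of a type and more RNA per cell cannot be told apart, and the myeloid share of all UMIs stood at 7.43% for sham hearts, 20.6% for I/R hearts and 13.9% for SBP hearts.

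Il1b stood at 2.6, 3.33 and 5.04 CPM in the sham hearts, at 15.1, 72.2 and 11.7 CPM in I/R mice 1 to 3, and at 21.5, 14.6 and 17.5 CPM in SBP hearts. Every injured heart was above every sham heart, and I/R mouse 2 was far above the rest. The log2 fold change of I/R over sham was 2.44 (SE 0.55, adjusted p = 0.0233, limma), and 1.65 without I/R mouse 2 (adjusted p = 0.0147). It was lost without sham mouse 1, 2 or 3 (adjusted p = 0.079, 0.0637 and 0.0597, limma), with only the sham and I/R mice in the fit (0.0535) and on the mean of the deposited log values (0.143).

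Nlrp3 was 4.57, 3.62 and 4.91 CPM in sham and 10.6, 31.8 and 8.02 CPM in I/R hearts, which did not overlap, and I/R mouse 2 was again the highest. It rose by a log2 fold change of 1.5 (SE 0.40, adjusted p = 0.0429, limma), and by 0.94 without I/R mouse 2, which did not pass (adjusted p = 0.0525), and the call held in 7 of 19 alternatives.

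Pycard was more even among injured mice, at 13.9, 14.2 and 8.87 CPM in I/R against 4.99, 6.08 and 4.41 CPM in sham hearts (log2 fold change 1.09, SE 0.25, adjusted p = 0.0233, limma). Ripk3 was 0.935, 2.03 and 0.945 CPM in sham and 5.85, 4.61 and 2.22 CPM in I/R hearts, so that the lowest I/R heart lay just above the highest sham heart (log2 fold change 1.15, SE 0.32, adjusted p = 0.0464, limma). Ripk1 had the smallest rise and the tightest groups, with 51.1, 56.1 and 51.3 CPM in sham and 66.9, 85.3 and 75.9 CPM in I/R hearts (log2 fold change 0.51, SE 0.12, adjusted p = 0.0287, limma). Of 19 alternatives, the call held in 15 for Pycard, 8 for Ripk3 and 12 for Ripk1. Without I/R mouse 2, these 3 genes kept log2 fold changes of 0.98, 1.06 and 0.43 and none passed (adjusted p = 0.0823, 0.141 and 0.0964, limma). Il1b was then the only gene of the set called. The count was 0 without sham mouse 1 or sham mouse 3, 1 without sham mouse 2, 3 without SBP mouse 1 and 2 without SBP mouse 3.

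The 5 other genes did not pass in the whole heart. Casp8 averaged 58.3 ± 15.8 CPM in I/R and 34.2 ± 6.20 in sham hearts (SD, n = 3; adjusted p = 0.0783, limma), and its groups overlapped only at I/R mouse 3 (40.9 CPM against 41.2 in the highest sham heart). Casp1, Casp4, Gsdmd and Mlkl had log2 fold changes of 0.32, 0.52, 0.29 and 0.21, with adjusted p from 0.365 to 0.519. For Mlkl the interval of the difference was -0.23 to 0.64 on the log2 scale.

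**Figure D2:**
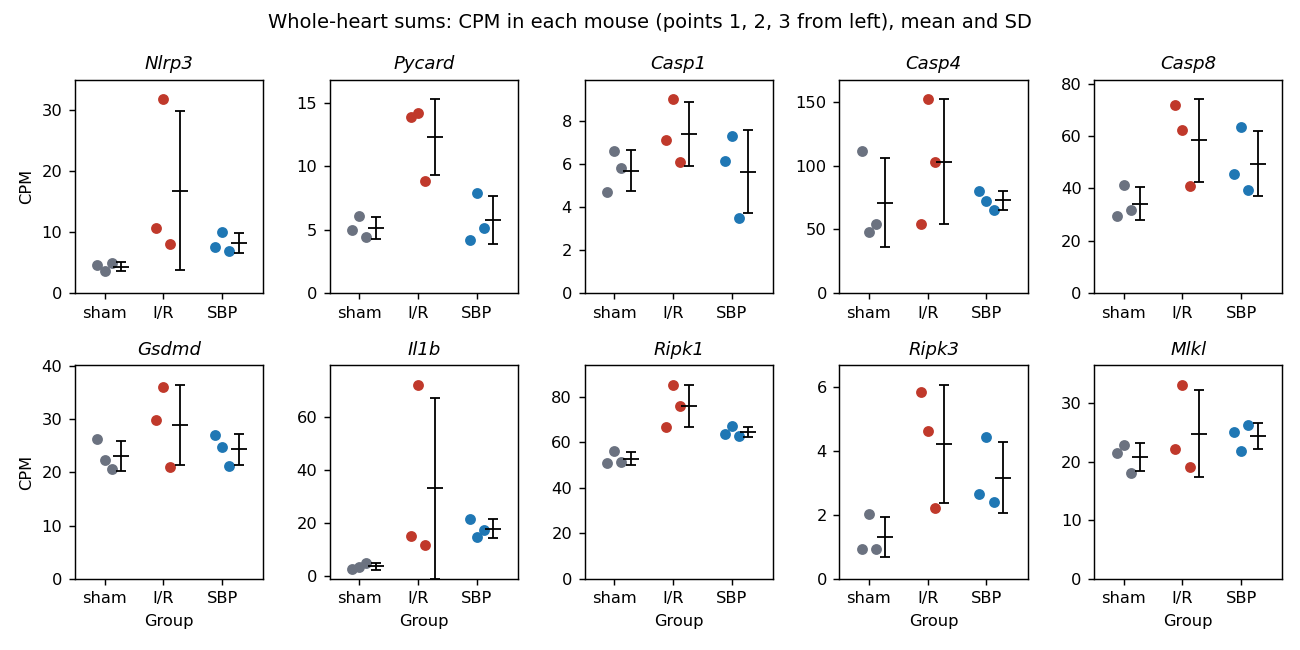
CPM of each gene in whole-heart sums on the y axis, by group on the x axis, with mice 1 to 3 from left to right as points and the mean and SD as a bar beside them. Il1b, Nlrp3, Pycard, Ripk3 and Ripk1 did not overlap between sham and I/R, and for Il1b (72.2 CPM) and Nlrp3 (31.8 CPM) I/R mouse 2 lay far above the other hearts.

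Where these transcripts lay changed with injury as well, in shares pooled per group and not tested. The myeloid share of all UMIs moved too, from 7.43% for sham hearts to 20.6% for I/R hearts and 13.9% for SBP hearts. The myeloid share of Pycard UMIs was 31.7% for sham hearts, 61.3% for I/R hearts and 43.2% for SBP hearts, and that of Ripk3 UMIs was 21.2%, 54.8% and 45.9%. For Mlkl the myeloid share was 5.80%, 25.5% and 13.5%, with fibroblasts holding 44.6%, 40.7% and 45.1%. Nlrp3 UMIs were myeloid in each group, with shares from 84.3% to 87.6%. For Il1b the myeloid share was 68.9%, 78.3% and 60.1%. In I/R mice 1 to 3, 219 of 291, 870 of 1050 and 122 of 206 Il1b UMIs were myeloid, so the pooled I/R share rests mainly on mouse 2.

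Within myeloid nuclei, 3 of the 10 genes were called higher in I/R than in sham mice: Pycard, Mlkl and Ripk3, the inflammasome adaptor and the kinase and effector of necroptosis. Of the 10933 genes tested there, 17.4% were called in either direction, and the median log2 fold change was 0.47 for the 10 genes and 0.08 for all. Pycard was 24.3, 20.6 and 18.1 CPM in sham and 36.6, 44.9 and 35.2 CPM in I/R mice, with a gap between the groups (log2 fold change 0.86, SE 0.23, adjusted p = 0.0231, limma). All I/R mice were high for this gene, and I/R mouse 2 did not stand apart.

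Mlkl was 17.8, 14.6 and 13.8 CPM in sham and 25.3, 47.6 and 25.2 CPM in I/R myeloid nuclei, and the highest value again came from I/R mouse 2 (log2 fold change 0.98, SE 0.27, adjusted p = 0.0236, limma). Ripk3 was 0, 6.87 and 2.17 CPM in sham and 13.9, 10.0 and 10.4 CPM in I/R myeloid nuclei (log2 fold change 2.08, SE 0.59, adjusted p = 0.0306, limma). The sham values of Ripk3 rest on 0, 8 and 3 UMIs, and the 0 of sham mouse 1 allows up to 5.00 CPM by counting error. The groups of both genes did not overlap. Without I/R mouse 2 the log2 fold changes of Pycard, Mlkl and Ripk3 were 0.75, 0.68 and 2.16 and none passed (adjusted p = 0.0938, 0.109 and 0.0626), and without sham mouse 3 none passed either (adjusted p = 0.0806, 0.0778 and 0.0732, limma). Pycard was also lost with cell types from marker scores (adjusted p = 0.0712) and Ripk3 with only the sham and I/R mice in the fit (0.0679, limma). Without sham mouse 2 the count was 1, and it was 2 without sham mouse 1, I/R mouse 1 or I/R mouse 3 and stayed at 3 when an SBP mouse was left out.

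Il1b varied more than any other gene among myeloid sums. It was 6.49, 36 and 42.0 CPM in sham, 45.5, 300 and 53.0 CPM in I/R and 104, 50.9 and 117 CPM in SBP mice. The injured groups lay above sham without overlap, but the lowest injured and the highest sham values were close, and the log2 fold change of 2.00 in I/R did not pass (SE 0.87, adjusted p = 0.154, limma). Without I/R mouse 2 it was 1.13 (adjusted p = 0.384, limma). Nlrp3 overlapped between groups, at 51.9, 38.6 and 49.2 CPM in sham and 35.7, 140 and 56.5 CPM in I/R mice (log2 fold change 0.50, interval -0.37 to 1.37). Its sign turned without I/R mouse 2 (-0.04, adjusted p = 0.938, limma).

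Casp1 went the other way in value. It was 42.2, 48.9 and 37.6 CPM in sham, 23.1, 30.0 and 28.7 CPM in I/R and 37.4, 27.6 and 21.1 CPM in SBP myeloid nuclei. Both injured groups lay below the sham mice without overlap, but the differences did not pass (I/R log2 fold change -0.64, SE 0.23, adjusted p = 0.0779; SBP -0.59, adjusted p = 0.117, limma). Casp8 was nearly level, from 164 to 200 CPM over the 9 mice, with an interval of -0.23 to 0.36 for the log2 fold change of I/R over sham. Gsdmd and Ripk1 had log2 fold changes of 0.27 and 0.31 and did not pass (adjusted p = 0.338 and 0.188, limma).

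Casp4 varied between mice more than between groups. In myeloid nuclei it was 178, 75.5 and 108 CPM in sham, 78.5, 282 and 163 CPM in I/R and 127, 116 and 121 CPM in SBP mice. The same mice were high in other cells, since sham mouse 1 and I/R mouse 2 were also the 2 highest in endothelial nuclei (213 and 245 CPM) and were 2 of the 3 highest in fibroblasts (234 and 218 CPM, with 258 in I/R mouse 3). Its log2 fold change of I/R over sham in myeloid nuclei was 0.43 (interval -0.54 to 1.41).

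**Figure D3:**
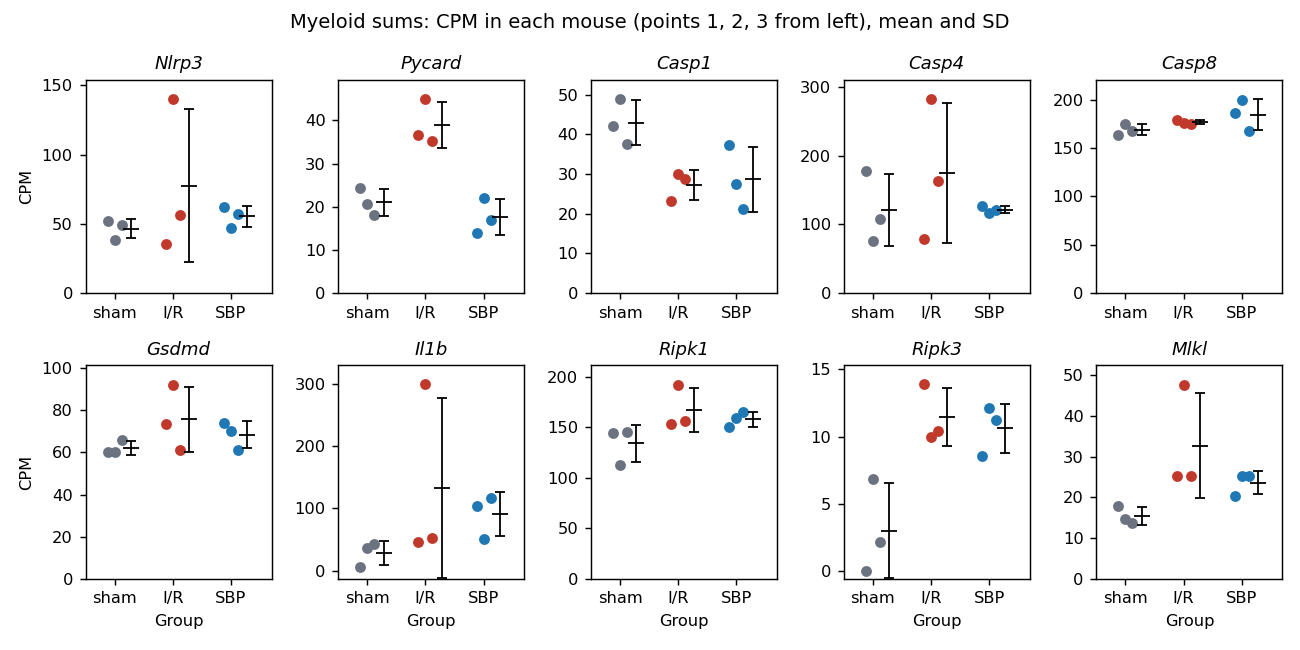
CPM of each gene in sums of myeloid nuclei on the y axis, by group on the x axis, with mice 1 to 3 from left to right as points and the mean and SD as a bar beside them. Pycard, Mlkl and Ripk3 separated I/R from sham mice, Casp1 lay lower in I/R (23.1 to 30.0 CPM) than in sham mice (37.6 to 48.9 CPM), and Casp8 stayed between 164 and 200 CPM.

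The makeup of the myeloid nuclei moved with these values. Summed over 6 monocyte markers, the myeloid level was 166 to 180 CPM in sham, 706, 1414 and 529 CPM in I/R mice 1 to 3 and 658 to 700 CPM in SBP mice, and over 6 neutrophil markers it was 91.8 to 130, 413, 1010 and 463, and 292 to 364 CPM. When macrophage-like nuclei alone were summed (1779 nuclei of sham, 3496 of I/R and 2291 of SBP mice), 1 of the 10 genes was called higher in I/R, Mlkl, and 15.1% of 10699 genes were called. Mlkl was 18.3, 15.5 and 13.7 CPM in sham and 27.4, 48.0 and 26.7 CPM in I/R mice, without overlap (log2 fold change 1.01, SE 0.26, adjusted p = 0.0195, limma; 0.75 and adjusted p = 0.0869 without I/R mouse 2; 0.92 and adjusted p = 0.0663 without sham mouse 3; 1.01 and adjusted p = 0.0522 without sham mouse 2; 1.05 and adjusted p = 0.0902 with cell types from marker scores). The monocyte markers moved within the macrophage-like nuclei too, from 130 to 138 CPM in sham mice to 599, 454 and 248 CPM in I/R mice 1 to 3, as did the neutrophil markers, from 94.0 to 135 CPM to 408, 514 and 235 CPM, and their part in the Mlkl difference was not tested.

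Different subclusters held most of the macrophage-like nuclei in sham and injured mice, and each sum covers all of them. The subcluster led by Plekhg5 made up 93% to 97.9% of the macrophage-like nuclei of sham mice, 17.1%, 7.17% and 56.4% of those of I/R mice 1 to 3 and 31% to 59.7% of those of SBP mice. The subcluster led by Gpnmb was 0.654% to 1.1% in sham mice and 73.5%, 20.1% and 35.4% in I/R mice, and the one led by Fat3 was 68.9% in I/R mouse 2. Within the Plekhg5 nuclei alone, Mlkl was 17.5, 17.2 and 11.0 CPM for sham and 16.5, 37.1 and 16.2 CPM for I/R mice, where the 37.1 rests on 3 UMIs of 41 nuclei. These groups overlapped, with 2 of the 3 I/R mice inside the sham range. In the Gpnmb nuclei of I/R mice Mlkl was 28.5, 65.6 and 34.7 CPM, and sham mice held 4, 6 and 5 such nuclei with no Mlkl UMI in them. Within the Plekhg5 nuclei Pycard was 29.2, 22.6 and 18.8 CPM for sham and 26.4, 0 and 21.3 CPM for I/R mice. Ripk3 was 0, 4.31 and 2.35 CPM for sham and 0, 12.4 (1 UMI) and 5.07 CPM for I/R mice, so both genes overlapped. The rises of Mlkl, Pycard and Ripk3 in the myeloid and macrophage-like sums therefore cannot be told apart from the change in which subclusters those sums hold.

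In the same macrophage-like sums, Ripk3 was 0, 7.30 and 2.28 CPM in sham and 15, 7.74 and 10.1 CPM in I/R mice (log2 fold change 1.94, SE 0.63, adjusted p = 0.0525, limma). Pycard was 27.4, 20.1 and 19.0 CPM in sham and 37.1, 30.9 and 33.7 CPM in I/R mice (log2 fold change 0.61, SE 0.23, adjusted p = 0.0993, limma). Neither group pair overlapped and neither passed. Casp1 was 43.9, 50.2 and 38.0 CPM in sham and 24.2, 23.2 and 28.2 CPM in I/R mice, with a log2 fold change of -0.78 that narrowly missed the threshold (SE 0.25, adjusted p = 0.053, limma). Il1b overlapped here, at 7.31, 31.0 and 43.4 CPM in sham and 26.1, 106 and 16.1 CPM in I/R mice, and its log2 fold change was 0.69 (interval -1.08 to 2.46) with I/R mouse 2 and -0.08 without it.

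Among the named myeloid subclusters of at least 100 nuclei, Il1b was highest in neutrophil-like and monocyte-like nuclei. Over all 9 mice it was at 1517 CPM in 199 neutrophil-like nuclei, 299 CPM in 1429 monocyte-like nuclei, and 27.6 and 25.0 CPM in the macrophage-like subclusters led by Plekhg5 (3605 nuclei) and by Gpnmb (2976 nuclei). A further 36 unnamed nuclei were at 612 CPM. Sham hearts held 18 monocyte-like nuclei and 1 neutrophil-like nucleus in all, so these classes could not be compared with sham. Monocyte-like nuclei held 45 Il1b UMIs in I/R mouse 1, 582 in mouse 2 and 27 in mouse 3, which gave 222, 369 and 140 CPM, and SBP mice had 378, 156 and 269 CPM. The I/R and SBP mice overlapped in this class.

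Neutrophil-like nuclei were shallow, with a median of 898 UMIs in I/R mice, and 46.1% of the 154 in I/R mice held an Il1b UMI. In I/R cardiomyocytes the share was 2.27% of 3262 nuclei at a median of 4708 UMIs. After each nucleus was thinned to 1000 UMIs, the shares were 45.5% of 55 neutrophil-like nuclei (95% exact binomial interval 32% to 59.4%, counting error only), 14.6% of 916 monocyte-like nuclei (12.4% to 17.1%) and 0.644% of 3259 cardiomyocytes (0.399% to 0.983%). Thinning left out 99 neutrophil-like, 16 monocyte-like and 3 cardiomyocyte nuclei.

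Nlrp3 was highest in the monocyte-like (130 CPM) and neutrophil-like (114 CPM) nuclei and in a macrophage-like subcluster led by Fat3 (97.3 CPM), with 46.8 CPM in the Plekhg5 subcluster and 38.0 CPM in the Gpnmb subcluster. I/R mouse 2 held 253 of the 374 monocyte-like Nlrp3 UMIs, and without it the values were 92.7, 150 (16 UMIs) and 47.1 CPM in the monocyte-like, neutrophil-like and Fat3 nuclei. The components called in I/R myeloid nuclei had another order. Ripk3 was at 18.1 CPM in the Gpnmb subcluster, 19.4 CPM in 328 nuclei led by the cell cycle gene Neil3 and 12.5 CPM in monocyte-like nuclei, but 2.52 CPM in the Plekhg5 subcluster. Mlkl was between 31.2 and 37.6 CPM in the Gpnmb, monocyte-like, Fat3 and Neil3 subclusters and at 16.2 CPM in the Plekhg5 subcluster. Without I/R mouse 2 these values were 29.7, 21.5, 30 and 36.4 CPM, and 16 CPM in the Plekhg5 subcluster.

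Pycard was at 44.1 CPM in monocyte-like, 34.6 (7 UMIs) in neutrophil-like, 33.2 in Gpnmb and 21.7 in Plekhg5 nuclei, and at 18.4 and 11.9 CPM in the dendritic cell-like groups led by Klrd1 and Clec9a. Without I/R mouse 2 it was at 33.7 CPM in monocyte-like, 9.38 (1 UMI) in neutrophil-like, 33.4 in Gpnmb and 22 in Plekhg5 nuclei. Casp1 was the reverse between the larger subclusters, at 35.8 CPM in Plekhg5 and 26.5 CPM in Gpnmb nuclei. The dendritic cell-like groups led by Klrd1 and Clec9a held 1 Mlkl UMI each (2.62 and 2.98 CPM). A smaller one of 30 nuclei, led by Cacnb3, held 2 (31.3 CPM), and 0 in its 23 nuclei without I/R mouse 2. The Clec9a group had no Ripk3 UMI among 335654. Subclusters were pooled over mice and are not compared by a test.

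**Figure D4:**
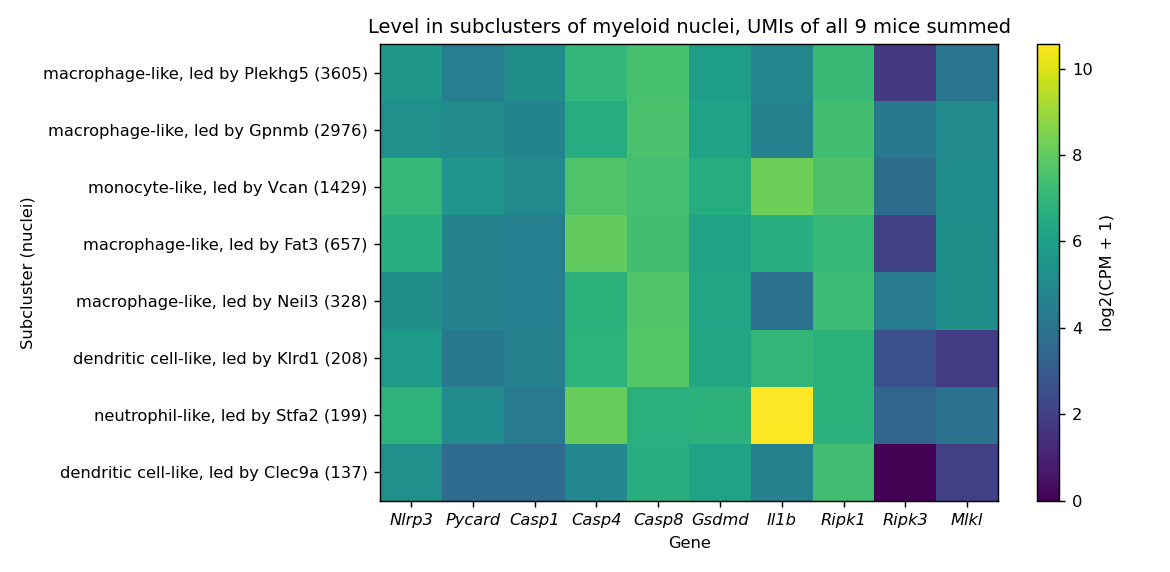
Level of each gene (x axis) in the subclusters of myeloid nuclei with at least 100 nuclei (y axis, number of nuclei in brackets), with the UMIs of all 9 mice summed and the color giving log2(CPM + 1). Il1b peaked in neutrophil-like nuclei (1517 CPM) and monocyte-like nuclei (299 CPM), and Ripk3 was low in the Plekhg5 macrophage-like subcluster (2.52 CPM) and at 18.1 CPM in the Gpnmb subcluster.

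In fibroblasts, 1 of the 9 genes tested was called higher in I/R, Il1b, with 11.3% of 13070 genes called; Nlrp3 was too low to be tested. Il1b was 2.67, 0 and 1.74 CPM in sham, 7.90, 17.3 and 4.08 CPM in I/R and 9.60, 5.52 and 5.93 CPM in SBP fibroblasts (I/R log2 fold change 2.12, SE 0.54, adjusted p = 0.0273, limma; 1.64 and adjusted p = 0.101 without I/R mouse 2; 2.30 and adjusted p = 0.065 without sham mouse 3; 1.56 and adjusted p = 0.0683 without sham mouse 2). Every injured mouse was above every sham mouse, and the 0 of sham mouse 2 allows up to 1.08 CPM. Ripk3 was 0.445, 1.08 and 1.05 CPM in sham and 6.46, 5.96 and 1.44 CPM in I/R fibroblasts, without overlap but not past the test (log2 fold change 1.46, SE 0.45, adjusted p = 0.0579, limma).

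Cardiomyocytes and endothelial nuclei had no gene of the set called, of 7 and 9 tested, where 0.821% of 12908 genes and 3.1% of 12217 genes were called. At an unadjusted p under 0.05 the counts were 1 and 3, where 14.2% and 17.8% of all genes were under that value. Il1b was the gene nearest the threshold, at 1.51, 0.429 and 0.401 CPM in sham and 3.18, 9.87 and 3.53 CPM in I/R cardiomyocytes (log2 fold change 1.79, SE 0.38, adjusted p = 0.0601, limma). In endothelial nuclei it was 3.92, 0 and 4.89 CPM in sham and 7.36, 29.0 and 13.1 CPM in I/R mice (log2 fold change 2.31, SE 0.71, adjusted p = 0.117, limma). In both types the groups did not overlap.

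Markers of myeloid cells moved with these low Il1b values. The 16 myeloid markers were all above 0 in cardiomyocytes, endothelial nuclei and fibroblasts, and their median level, as a percent of that in myeloid nuclei, came to 1.59% for sham, 4.17% for I/R and 2.94% for SBP cardiomyocytes, 6.84%, 16.5% and 10.2% in endothelial nuclei and 3.74%, 8.91% and 6.77% in fibroblasts. Their summed level spanned 64.7 to 78.1 CPM for sham, 119 to 242 for I/R and 89.2 to 122 for SBP cardiomyocytes, 227 to 317, 546 to 818 and 317 to 489 CPM in endothelial nuclei, and 305 to 614, 468 to 998 and 381 to 577 CPM in fibroblasts. Single markers ranged from 0.54% to 1239% of their myeloid level in sham fibroblasts and from 1.7% to 123% in sham endothelial nuclei. The 6 monocyte markers alone summed to 456, 175 and 318 CPM in sham fibroblasts. The fibroblast sum is therefore not a measure of myeloid transcripts alone. On the same scale Il1b was at 2.77%, 4.16% and 5.20% of its myeloid level in cardiomyocytes, at 10.4%, 12.4% and 20.4% in endothelial nuclei and at 5.22%, 7.34% and 7.72% in fibroblasts. The part of these transcripts in the Il1b values was not tested. Mlkl, Casp4, Gsdmd and Ripk1 lay above the marker median of each group in endothelial nuclei and fibroblasts, at 39.7% to 302% of their myeloid level. So did Ripk3, Casp8 and Pycard, at 15.2% to 115%. Casp1 lay above it except in I/R fibroblasts, and Il1b except in the I/R mice of both types. Nlrp3 lay below it in every group of both types. The 16 markers came from myeloid, macrophage and monocyte lists, without the neutrophil list, so this median is no measure of neutrophil transcripts. In fibroblasts the 6 neutrophil markers summed to 41, 10.8 and 25.8 CPM for sham and 61.5, 269 and 59.3 for I/R mice. SBP fibroblasts had 113, 47.8 and 48.2 CPM. Endothelial sums were 43.7, 12.1 and 40.3 CPM for sham, 111, 412 and 125 for I/R and 185, 86 and 79.6 for SBP mice. Their part in the Il1b values was not tested.

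Whether the myeloid difference was unlike that of other cells was tested on differences within each mouse, for genes measured in both types. Between myeloid nuclei and fibroblasts, 1 of 9 genes was called, Mlkl, and 6.95% of 10537 genes were called. The I/R effect on Mlkl was larger in myeloid nuclei by 1.09 on the log2 scale (SE 0.21, adjusted p = 0.0145, limma), where fibroblasts held 43.5 ± 12.5 CPM with I/R and 45.7 ± 3.28 CPM without it. The value was 1.00 without I/R mouse 2 and 1.06 without sham mouse 3, and neither passed (adjusted p = 0.0668 and 0.0526, limma), nor did it pass with no filter on low values (0.0608) or with cell types from marker scores (0.0611).

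Against cardiomyocytes and endothelial nuclei none of the 7 and 9 genes was called, with 5.35% of 10280 genes and 3.14% of 10423 genes called. Under an unadjusted p of 0.05 were 1 and 3 genes of the set, and 23.4% and 21.9% of all genes. Mlkl had differences of 1.04 (adjusted p = 0.118) and 0.84 (adjusted p = 0.11), and Ripk3 a difference of 1.77 from endothelial nuclei (SE 0.55, adjusted p = 0.103, limma).

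To ask whether the drug altered these genes, SBP mice were compared with I/R mice. None of the genes was called in whole-heart, cardiomyocyte, endothelial, fibroblast, myeloid or macrophage-like sums, and the share of all genes called was 0% in each of these 6 comparisons. At an unadjusted p under 0.05 the whole heart had 719 genes (4.48%) and myeloid nuclei 414 (3.79%), among which 1 of the set in each, Pycard.

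In whole-heart, fibroblast and myeloid sums, Pycard was the gene of the set whose SBP and I/R values did not overlap. The share of all genes without overlap was not counted, so this separation cannot be set against other genes and is not read as an effect of SBP. The whole-heart sums include the nuclei of the others. In myeloid nuclei Pycard was 14.0, 22.1 and 16.9 CPM in SBP mice, near the sham range of 18.1 to 24.3, against 35.2 to 44.9 CPM in I/R mice. The log2 fold change of SBP over I/R was -1.11 (interval -1.61 to -0.61, unadjusted p = 0.000363), and with adjustment over all genes it did not pass (adjusted p = 0.662, limma).

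The same gene was 15.2, 20.1 and 18.4 CPM in SBP macrophage-like nuclei, against 30.9 to 37.1 CPM in I/R mice (log2 fold change -0.89, interval -1.40 to -0.39, adjusted p = 0.762, limma). In the whole heart Pycard was 4.23, 7.92 and 5.18 CPM in SBP and 8.87 to 14.2 CPM in I/R hearts (log2 fold change -0.98, adjusted p = 0.999), and fibroblasts had 3.11, 4.56 and 3.86 CPM in SBP and 5.76 to 7.09 in I/R mice (log2 fold change -0.66, adjusted p = 1, limma). No SBP value reached the I/R range in these 4 sums, which share nuclei, and none of the differences passed the test. The groups overlapped in endothelial nuclei, at 3.75, 8.65 and 3.62 CPM in SBP and 12.9, 7.78 and 5.80 CPM in I/R mice (log2 fold change -0.66, interval -1.51 to 0.19), and in cardiomyocytes (-0.29, interval -0.87 to 0.29). Ripk1 did not overlap in macrophage-like nuclei either, at 158, 160 and 165 CPM in SBP and 154, 156 and 155 CPM in I/R mice, a log2 fold change of 0.05 (interval -0.29 to 0.39). Within the Gpnmb subcluster Pycard was 12.2, 18.1 and 15.6 CPM in SBP and 40.6, 27.0 and 52.6 CPM in I/R mice, without overlap. These values rest on 3, 29 and 6 UMIs in SBP and 128, 7 and 41 UMIs in I/R mice, so counting error limits the separation. In the Plekhg5 subcluster the injured groups overlapped.

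The other genes overlapped between SBP and I/R mice in myeloid nuclei. The intervals of the log2 fold change were -0.98 to 0.18 for Mlkl, -1.38 to 1.19 for Ripk3, -1.12 to 0.62 for Nlrp3, -2.06 to 1.91 for Il1b and -0.23 to 0.35 for Casp8. For Il1b and Nlrp3, the SBP mice lay in a narrow range (50.9 to 117 and 47.0 to 62.3 CPM) inside the wide range of the I/R mice. Without I/R mouse 2 the log2 fold change of Il1b turned from -0.40 to 0.39 in the whole heart and from -0.07 to 0.80 in myeloid nuclei, and neither passed.

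**Figure D5:**
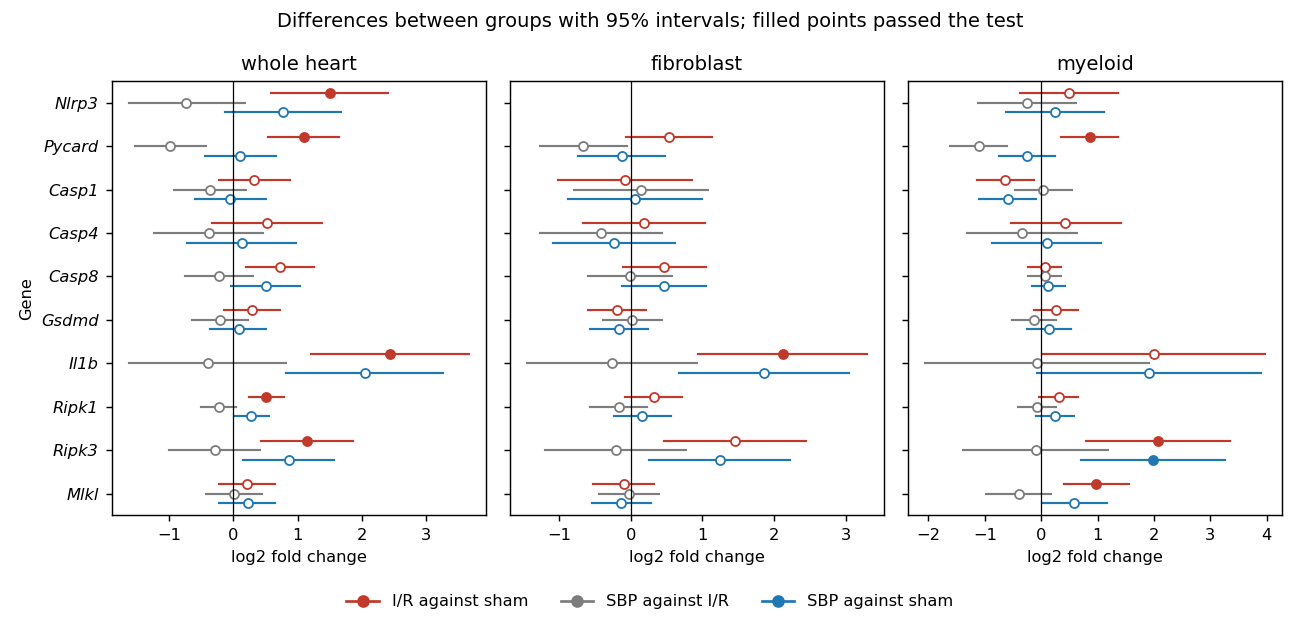
Log2 fold change on the x axis for each gene (y axis) in whole-heart, fibroblast and myeloid sums, for I/R against sham, SBP against I/R and SBP against sham, with 95% intervals as lines and filled points where the test passed. For SBP against I/R no point is filled, and Pycard in myeloid nuclei is the farthest below 0 (-1.11).

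Compared with sham, SBP mice had 0 of 10 genes called in the whole heart (3.36% of genes called), 0 of 7 in cardiomyocytes (0.132%), 0 of 9 in endothelial nuclei (1.96%), 0 of 9 in fibroblasts (6.05%), 1 of 10 in myeloid nuclei (12.2%) and 0 of 10 in macrophage-like nuclei (11.5%), by limma. At an unadjusted p under 0.05 these counts were 3, 1, 1, 2, 3 and 3. The shares of all genes under that value were 22.1%, 13.3%, 15.5%, 19.7%, 27.8% and 27.1%. I/R and SBP mice were set against the same sham mice, so both comparisons share controls. The gene called was Ripk3, at 8.57, 12.1 and 11.2 CPM in SBP myeloid nuclei, above the 0 to 6.87 CPM of sham mice (log2 fold change 1.98, SE 0.59, adjusted p = 0.0468, limma). This call was lost without sham mouse 1, sham mouse 3, I/R mouse 3 or any of the SBP mice (adjusted p up to 0.148, limma). Over all alternatives it held in 7 of 20, and it was also lost without TMM factors, with a pseudocount of 0.5, with no filter on low values, with the highest doublet scores removed, with cell types from marker scores, with the replicate block (adjusted p = 0.0527, limma) and on the mean of the deposited log values.

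In the whole heart, Il1b was higher in SBP than in sham mice by 2.04 on the log2 scale without passing (SE 0.55, adjusted p = 0.0702, limma), and all 3 SBP hearts lay above the sham hearts. Without I/R mouse 2 in the fit, Il1b passed in the whole heart (adjusted p = 0.00407), fibroblasts (0.0438) and cardiomyocytes (0.0415, limma). That mouse is in neither group compared here. Over all alternatives Il1b passed in 3 of 19 for the whole heart, 4 of 20 for fibroblasts and 3 of 20 for cardiomyocytes. The adjusted p reached 0.464, 0.385 and 0.471 (limma). Ripk3 and Nlrp3 had values of 0.86 and 0.77 (adjusted p = 0.155 and 0.296, limma). Mlkl in SBP myeloid nuclei was 20.3, 25.2 and 25.3 CPM, above the sham mice without overlap, with a log2 fold change of 0.59 (SE 0.27, adjusted p = 0.173, limma).

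Other genes of these pathways were read from 6 lists, also chosen with earlier results of these data known, so their counts are a description. They stand against 11.4% of all genes called in the whole heart, 17.4% in myeloid nuclei and 11.3% in fibroblasts for I/R against sham. Of 18 sensors and priming genes, 4 were higher and 0 lower in I/R than sham whole hearts, and 3 were higher and 2 lower in myeloid nuclei. Mefv, the gene of the inflammasome sensor pyrin, was at 67.6 ± 32.6 CPM in I/R and 5.07 ± 4.04 in sham myeloid nuclei (log2 fold change 3.54, adjusted p = 0.00306, limma). Nlrc4, another sensor gene, fell from 83.7 ± 9.06 to 49.2 ± 4.70 CPM (log2 fold change -0.75, adjusted p = 0.0121, limma). In fibroblasts 1 of 14 was higher, Myd88, the adaptor of Toll-like and interleukin-1 receptors (log2 fold change 0.80, adjusted p = 0.0336), and in macrophage-like nuclei Nfkbia, an NF-kB inhibitor gene, was among those higher (log2 fold change 1.97, adjusted p = 0.0362, limma). P2rx7, the ATP-gated channel that triggers NLRP3, was lower in SBP than in sham myeloid nuclei (log2 fold change -0.62, adjusted p = 0.0238, limma). Txnip, whose product binds NLRP3, did not pass in myeloid nuclei (log2 fold change 0.28, adjusted p = 0.474, limma).

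Of the interleukin-1 family, 7 of 10 tested ligands, receptors and inhibitors were higher in I/R whole hearts and 0 lower, with a median log2 fold change of 1.02. They included Il1rap and Il18rap, accessory chains of the interleukin-1 and interleukin-18 receptors (log2 fold changes 0.69 and 1.57, adjusted p = 0.0161 and 0.0171, limma). In myeloid nuclei 3 of 8 were higher and 1 lower. The decoy receptor gene Il1r2 was at 132 ± 129 CPM in I/R and 2.73 ± 3.36 in sham myeloid nuclei (log2 fold change 4.96, adjusted p = 0.0134, limma), and Il1rn, the gene of the receptor antagonist, at 12.1 ± 11.9 and 0.527 ± 0.462 CPM (log2 fold change 2.78, adjusted p = 0.00558). Il1r2 was among the leading genes of the neutrophil cluster (230 nuclei), and sham hearts held 1 neutrophil-like nucleus in all. It was also called in fibroblasts (log2 fold change 3.02), endothelial nuclei (4.19) and cardiomyocytes (3.08). The myeloid markers given above moved there too, and their part in these values was not tested. Il1rl1, which encodes the interleukin-33 receptor, fell from 92.4 ± 10.5 to 18.7 ± 9.37 CPM (log2 fold change -2.39, adjusted p = 0.00148, limma).

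The signalling receptor gene of interleukin-1, Il1r1, rose in fibroblasts to 853 ± 93.0 CPM in I/R mice, from a sham level of 295 ± 17.2 CPM (log2 fold change 1.52, SE 0.16, adjusted p = 0.000211, limma) and stood at 702 ± 134 in SBP mice (log2 fold change over sham 1.23, adjusted p = 0.00125, limma). Il18, the other cytokine that caspase-1 cuts, rose in the whole heart (log2 fold change 1.12, adjusted p = 0.0443), and in myeloid nuclei it was at 85.5 ± 19.0 CPM in I/R and 75.5 ± 5.50 in sham mice (adjusted p = 0.629, limma).

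Among other executioners and pores, 2 of 6 tested genes were higher in I/R whole hearts, 2 in fibroblasts and 1 in myeloid nuclei, and none was lower. The 1 of 6 in myeloid nuclei is near the 17.4% of all genes. Gsdme, another gasdermin gene, was among those higher in fibroblasts (log2 fold change 0.81, adjusted p = 0.0336, limma). Ninj1, whose product drives the final rupture of the plasma membrane, was at 79.8 ± 21.1 CPM in I/R and 32.8 ± 11.0 in sham macrophage-like nuclei (log2 fold change 1.27, adjusted p = 0.0155, limma).

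Of the death receptor complex and its brakes, 2 of 20 were higher in I/R whole hearts and 2 of 17 in myeloid nuclei, and none was lower, shares at or below those of all genes (11.4% and 17.4%). Those of the whole heart were Tnfrsf1a and Tnfrsf1b, both receptors of tumor necrosis factor (log2 fold changes 0.83 and 0.80, adjusted p = 0.0189 and 0.0297, limma). Birc2, which encodes a ubiquitin ligase of this complex, was the 1 called in fibroblasts (log2 fold change 0.94, adjusted p = 0.00687, limma). In myeloid nuclei the genes called were Tradd, an adaptor of the tumor necrosis factor receptor, and the receptor gene Tnfrsf1a, with log2 fold changes of 1.06 and 0.81 (adjusted p = 0.013 and 0.0362, limma). The brakes Cflar and Tnfaip3 had log2 fold changes of 0.44 and 1.70 and did not pass (adjusted p = 0.14 and 0.125, limma), and Tnfaip3 was at 50.1 ± 60.7 CPM in I/R mice. Fadd and Tnf were low in the whole heart, at 2.01 ± 0.311 and 1.73 ± 1.37 CPM in I/R hearts, and neither passed (adjusted p = 0.664 and 0.455, limma).

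Of the necroptosis triggers, 0 of 6 were called in the whole heart and 1 in myeloid nuclei, Tlr3, which fell from 44.3 ± 4.61 to 15 ± 1.86 CPM (log2 fold change -1.5, adjusted p = 0.00156, limma). Zbp1, a nucleic acid sensor that activates RIPK3, did not pass in myeloid nuclei (log2 fold change -0.12, adjusted p = 0.771, limma). None of the 9 genes of ESCRT-III membrane repair, which closes gasdermin and MLKL lesions, was called in either. In each, 1 was under an unadjusted p of 0.05, a share below the 28.5% and 32.1% of all genes. Without I/R mouse 2, several of the listed genes no longer passed for I/R against sham: Il18, Il1rap, Gsdme, Tnfrsf1a and Tnfrsf1b in the whole heart (adjusted p = 0.0539 to 0.147, limma), Gsdme and Myd88 in fibroblasts (0.0951 and 0.101), Tnfrsf1a in myeloid nuclei (0.14), and Ninj1 and Nfkbia in macrophage-like nuclei (0.0576 and 0.0529). In myeloid nuclei, Il1r2, Il1rn and Mefv still passed (log2 fold changes 4.12, 2.08 and 3.31), and the log2 fold change of Tnfaip3 was 0.71. None of the listed genes was called between SBP and I/R mice in whole-heart or myeloid sums. Of these genes 2 and 4 were under an unadjusted p of 0.05, as were 4.48% and 3.79% of all genes.

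As a description, the genes whose levels ran most alike with each member were sought over 36 sums, 4 cell types in each of 9 mice, among 11778 genes. The sums share libraries and their base composition is not independent, and the cell types set most of the likeness. Nlrp3 ran with Lcp2 and Ncf4 (Pearson r 0.98 and 0.975), genes of leukocyte signalling and the phagocyte oxidase. Il1b ran with Il18rap, Csf3r and Fgr (0.928, 0.927 and 0.922), and Pycard with Ifi209, Lpxn and Igsf6 (0.962, 0.95 and 0.946). Casp1 ran with Oas2, Pitpna and Tnfrsf11a (0.961, 0.961 and 0.96).

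Genes with wider expression had other neighbours. Mlkl ran with Tspan5, Prkd3 and Dnajc10 (0.973, 0.971 and 0.971), and Casp4 with Tle3, Sec24b and Ifitm2 (0.976, 0.972 and 0.972). Gsdmd ran with Cmip, Zc3hav1 and App (0.985, 0.985 and 0.984). Casp8 ran with Arrdc1, Tbc1d1 and Trim30a (0.984, 0.982 and 0.981), Ripk1 with Ppil2, Ifnar2 and Tbk1 (0.975 each), and Ripk3, the rarest of the set with 401 UMIs in these sums, with Hnrnpk and Esyt1 (0.912 and 0.891).

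On build GRCm38, Casp1 (chromosome 9, 5298517 to 5307265) and Casp4 (chromosome 9, 5308828 to 5336783) are neighbours on the plus strand and were counted separately. Pycard, Il1b, Mlkl and Ripk1 overlap annotated genes on the other strand (Gm45205, Il1bos, Gm45712 and, for Ripk1, Serpinb6a and Gm17083), and Casp8 and Ripk1 overlap Gm37760 and Gm17084 on the same strand. Whether the counting used strand is not given in the sources used here, so reads of these genes and their partners may not have been told apart.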

How the data were processed

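Libraries of 9 mice (3 sham, 3 I/R, 3 SBP, as the labels give them) were made with droplet 3′ chemistry, aligned with Cell Ranger 4.0 to GRCm38 and processed in Seurat 3.2.0, per the submitters' processing notes. The deposited values are the natural log of 1 plus UMIs scaled by the authors to the same total in each nucleus, after reads were down-sampled between libraries, nuclei with few genes or many mitochondrial reads were dropped and mitochondrial genes were removed. The files hold fewer nuclei than the study states, and all pass its stated filter on genes. UMIs were recovered by dividing each back-transformed value by the lowest in its nucleus, so that at least 99.99954% of values came out whole within 0.1. Because the deposited unit is a log value, a count model was not run.

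Nuclei were clustered in Scanpy 1.11.5 with 2000 variable genes, leaving out the 10 genes and the pathway lists, and named from marker genes. The doublet caller marked 0.159% of nuclei, too few to count as working, and these were removed, so doublets were in effect not removed. An alternative removed the 4.41% with the highest scores. UMIs were summed per mouse and cell type (at least 20 nuclei), kept where the CPM reached that of 10 UMIs in a median sum in at least 3 samples, and tested with limma 3.58.1 (R 4.3.3) on log2(CPM + 1), which understates the change of low genes. p-values measure the spread between mice, and the procedure was tested on simulated data. Overlap between groups is given as a description only, and the share of all genes without overlap was not counted. Genes given with values were the 10 members, a fixed set of pathway genes and the most changed genes of each pathway list. The members and lists were chosen with earlier results of these data known. Alternatives covered normalization, pseudocount, filter, doublets, cell naming, samples in the fit, a replicate block, the mean of deposited values and each mouse left out. Promoter sequences are from RefSeq (GRCm38.p6) and positions from GENCODE. A few genes that the rules would name are not reported here.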

Additional observations from a re-analysis of the deposited data

Results flagged for a closer look

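The I/R effect on Mlkl differed between myeloid nuclei and fibroblasts by the test of the difference itself, being larger in myeloid nuclei by 1.09 on the log2 scale (95% interval 0.62 to 1.55, adjusted p = 0.0145, limma). The call was lost in 5 of 20 alternatives: with no filter on low values (adjusted p = 0.0608), with cell types from marker scores (0.0611), on the mean of the deposited log values (0.148), without sham mouse 3 (0.0526) and without I/R mouse 2 (0.0668, limma). Myeloid Mlkl was 13.8 to 17.8 CPM in sham and 25.2 to 47.6 CPM in I/R mice, while fibroblasts were at 42.6 to 49.1 and 33.8 to 57.6 CPM. Monocyte markers summed over myeloid nuclei moved with it, from 166 to 180 CPM in sham to between 529 and 1414 CPM in I/R mice and, within macrophage-like nuclei alone, from 130 to 138 CPM to between 248 and 599 CPM. Their part in the difference was not tested. The subcluster led by Plekhg5 was 93% to 97.9% of the macrophage-like nuclei in sham and between 7.17% and 56.4% in I/R mice, and within it Mlkl overlapped between the groups (11.0 to 17.5 CPM and 16.2 to 37.1 CPM).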

How the results depend on the processing

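Counts of the 10 genes called are given against the reported count. For I/R against sham in the whole heart (5), the count was 3 with a pseudocount of 5, 3 with no filter on low values, 1 with only the 6 samples compared and 0 on the mean of the deposited log values, and 0 to 6 when a mouse was left out. In myeloid nuclei (3) it was 2 with marker-score cell types, with Pycard lost (adjusted p = 0.0712, limma), 2 with the 6 samples, with Ripk3 lost (adjusted p = 0.0679, limma), 0 on the mean of log values and 0 to 3 with a mouse left out. In macrophage-like nuclei (1) it was 2 without TMM factors, 2 with median-of-ratios factors, 3 with a pseudocount of 5, 0 with cell types from marker scores, 2 with the 6 samples, 0 on the mean of log values and 0 to 2 with a mouse left out. In fibroblasts (1) it was 0 with the 6 samples, 0 on the mean of log values and 0 to 2 with a mouse left out. In cardiomyocytes (0) it was 1 with a pseudocount of 0.5 and 0 to 1 with a mouse left out. On the mean of log values, rare genes cannot reach the fold threshold by construction. The adjusted p did not pass there either for Il1b (0.143) and Nlrp3 (0.125) in the whole heart (limma). Nor did it pass for the Mlkl difference between myeloid nuclei and fibroblasts (0.148, limma). The cause of these losses and of the other changes was not tested.

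For SBP against sham in myeloid nuclei (1), the count was 0 without TMM factors, with a pseudocount of 0.5, with no low filter, with the highest doublet scores removed, with marker-score cell types, with the replicate block and on the mean of log values, and 0 to 1 with a mouse left out. In the whole heart (0) it was 2 with the 6 samples and 0 to 1 with a mouse left out. In cardiomyocytes (0) it was 1 with the 6 samples and 0 to 1 with a mouse left out. In fibroblasts (0) it was 1 with marker-score cell types, 1 with the 6 samples and 0 to 1 with a mouse left out. In macrophage-like nuclei (0) it was 0 to 1 with a mouse left out. The myeloid effect against fibroblasts (1) was 0 with no low filter, 0 with marker-score cell types, 0 on the mean of log values and 0 to 1 with a mouse left out. Against cardiomyocytes (0) it was 1 with a pseudocount of 5 and 1 with marker-score cell types, and against endothelial nuclei (0) it was 1 with a pseudocount of 5. Of the pairs of neighbouring cell types, 16 to 20 differed with a mouse left out. For SBP against I/R the count was 0 under every alternative run.

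The replicate block moved the count only for SBP against sham in myeloid nuclei, but in the whole heart it changed which 5 genes were called for I/R against sham, with Nlrp3 lost (adjusted p = 0.0514, limma) and Casp8 gained. Samples with the same number correlated above 0.1 in 3 of 9 pairs in the whole heart, 1 in cardiomyocytes, 2 in endothelial nuclei, 5 in fibroblasts and 3 in myeloid nuclei. Of 9 samples, 1 to 3 correlated best with their own number, so the numbers were not taken as pairs. Mice with different numbers correlated from -0.307 to 0.457 in the whole heart, against -0.399 to 0.288 for the same number. The highest were I/R mouse 1 with SBP mouse 2 (0.457, and 0.312 in myeloid nuclei) and I/R mouse 2 with SBP mouse 1 (0.369 and 0.228). The replicate block does not cover such pairs, and the fits took the mice as independent. Over single genes that passed in a comparison under any setting, 357 values under alternatives kept their side of the threshold, 83 fell below it, 29 passed it and 0 reversed direction. Ripk3 rests on 11 UMIs in sham myeloid nuclei and Il1b on 11 in sham fibroblasts, so depth limits these values.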

Other observations

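Among 36 nuclei of the myeloid clusters that were left unnamed and were led by C7 and Aspg, Il1b was at 612 CPM (40 UMIs). Neutrophil markers matched this group best, with 6 detected, while C7 and Lvrn among its leading genes also led a fibroblast cluster of 12273 nuclei. Doublets were in effect not removed, and their part in this group was not tested. A group of 30 dendritic cell-like nuclei led by Cacnb3, with Ccr7, the receptor of migrating dendritic cells, among its leading genes, held Il1b at 203 CPM (13 UMIs) and Gsdmd at 172 CPM (11 UMIs), with 2 Mlkl UMIs (31.3 CPM). Without I/R mouse 2 its 23 nuclei held 12 Il1b, 8 Gsdmd and 0 Mlkl UMIs. Neither group held a Ripk3 UMI, among 65363 and 63920 UMIs.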
